A study of Mus musculus with 6 samples.

Results

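The Hox genes of the 4 mouse clusters were examined in adult kidney RNA of the Pax2 and Pax8 double knockout series. Every gene whose symbol is Hoxa, Hoxb, Hoxc or Hoxd followed by a number was taken as a member. The members are the 36 such genes with an array transcript cluster that carries their symbol alone, among 22180 genes tested. Hoxa11 and Hoxd4, which share their clusters with another symbol, were not among them. Each sample is RNA of a bisected kidney on 1 Affymetrix Mouse Gene 2.1 ST array.

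The 3 arrays labelled Pax28 dKO (1, 3 and 5) came from mice homozygous for floxed Pax2 and Pax8 alleles that also carried Rosa26CreER, a ubiquitously expressed recombinase switched on by tamoxifen, so deletion was not directed to one cell type. The 3 controls (2, 4 and 6) were Cre-negative and also received tamoxifen. Mice of both groups were injected at 8 weeks of age on 3 days running with 50 mg/kg, the course was repeated at 10 weeks, and tissue was collected 14 days later. Each group held 2 females and 1 male, the males being knockout-labelled array 1 and control 4. The labels do not state that each array is a separate animal, and the p-values reflect no more than how far these samples spread, which may be technical.

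Hox genes encode homeodomain transcription factors that give cells their position along the body axis. Genes with the same number in different clusters are paralogues, descended from 1 ancestral gene, and the order of the genes along a chromosome follows the order of their expression domains from head to tail. In the embryo, paralogue group 11 genes act with Eya1 and Pax2 to start the metanephric kidney, Hoxb7 marks the ureteric bud and its collecting duct descendants, and group 10 genes act in the kidney stroma. Hox proteins bind DNA together with TALE homeodomain partners of the Pbx and Meis families, and their clusters are classic targets of Polycomb repression and MLL-dependent activation.

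In these adult kidneys most middle paralogues were above background, and groups 12 and 13 were not by their means. A gene was counted as above background where its mean over the 6 arrays exceeded 3.67 log2, the 95th percentile of the means of 1394 olfactory and vomeronasal receptor genes, a class best known from the nose. By this limit 26 of 36 members were above background. They were Hoxa2 to Hoxa7, Hoxa9 and Hoxa10, Hoxb2 to Hoxb9, Hoxc4, Hoxc6 and Hoxc8 to Hoxc10, and Hoxd3 and Hoxd8 to Hoxd11. The 10 members not above it were Hoxb1 and Hoxd1 at the head end, Hoxc5, and Hoxc11, the group 12 members Hoxc12 and Hoxd12, and the group 13 members Hoxa13, Hoxb13, Hoxc13 and Hoxd13 at the tail end. Values of those 10 genes lay between 2.20 and 3.82 log2 on the 6 arrays. The highest were of Hoxc12, at 3.76, 3.54 and 3.52 on the knockout-labelled arrays and 3.77, 3.82 and 3.53 on the controls, so that 3 of its 6 values lay above the limit and its mean did not. The lowest mean among the 26 genes was 4.65, of Hoxa3. Probe sets differ in brightness, so these levels were set against the limit and not against each other.

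**Figure D1:**
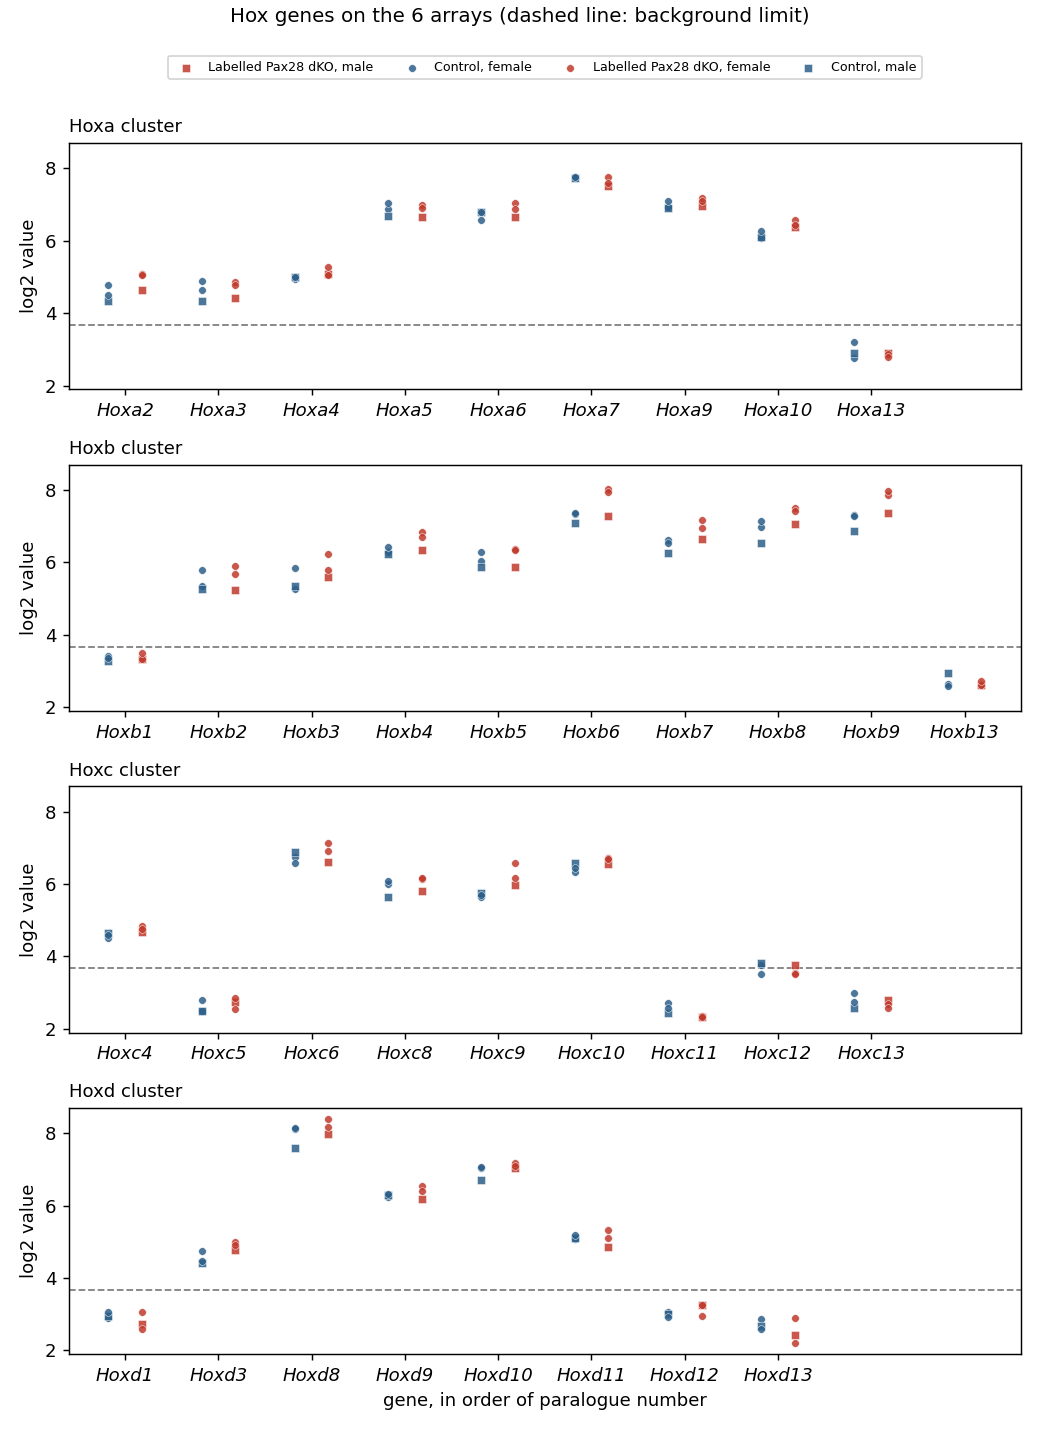
Log2 values of the 36 Hox genes on each array, by cluster and in order of paralogue number; circles are females, squares males, red the arrays labelled Pax28 dKO and blue the controls, and the dashed line is the background limit of 3.67 log2. Most middle paralogues lie above the line, Hoxc5 and group 13 lie below it, and Hoxc12 has 3 of its 6 values above it.

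Neither targeted gene was lower on the knockout-labelled arrays, which bears on every direction below. Pax8 stood at 10.11, 10.59 and 10.39 log2 on knockout-labelled arrays 1, 3 and 5 and between 8.89 and 9.09 on the controls. Pax2 stood at 6.11, 6.49 and 6.16 against 6.09, 5.77 and 6.08. Each gene has 1 cluster, and which exons the deletion takes is not given in the labels, so whether these probes lie within it is not known. The median over all clusters lay between 3.81 and 3.87 log2 per array, and Pearson's r between arrays, across genes, which are not independent replicates, between 0.979 and 0.995.

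The Hox genes differed little by knockout label, and the ones that rose were 3 neighbours of the Hoxb cluster. Hoxb9, Hoxb8 and Hoxb7 passed as higher (limma with genotype and sex, Benjamini-Hochberg adjusted p under 0.05 over 22180 genes), and no member passed as lower. That is 8.33% of 36 members, where 4.12% of all genes passed as higher, 3.08% as lower and 7.2% in either direction. The excess rests on few genes and was not tested. Among the 26 members above background the 3 are 11.5%, beside 6.06% of the 13671 genes above background as higher and 4.62% as lower. At an unadjusted p under 0.05 there were 10 of 36 members, 27.8% beside 22% of all genes, and 9 of the 26, 34.6% beside 29.6%. Hoxc11, which is not above background, was the member with a negative difference whose unadjusted p fell under 0.05 (-0.24 ± 0.09 log2, SE, n = 3 per group; limma adjusted p = 0.16). Groups that did not overlap were found in 8 of 36 members, 22.2%, beside 22.5% of all genes, and in 7 of the 26, 26.9% beside 28.1%. These shares lie near the background.

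Hoxb9 (Entrez gene 15417), a group 9 gene that acts in patterning the ribs, showed the largest difference of the 36. Its log2 values were 7.38, 7.87 and 7.97 on knockout-labelled arrays 1, 3 and 5, and 7.31, 6.86 and 7.29 on controls 2, 4 and 6. The 3 knockout-labelled arrays lay above the 3 controls, but the male of the knockout-labelled group was within 0.1 log2 of the female controls. The means were 7.74 ± 0.32 and 7.15 ± 0.25 log2 (SD, n = 3), a rise of 0.59 ± 0.08 (SE) or 1.5-fold, with a limma adjusted p of 0.012 and a 95% interval from 0.40 to 0.78.

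Hoxb8 (Entrez gene 15416), known from mouse mutants for roles in the spinal cord and in the blood lineage, stood at 7.07, 7.50 and 7.41 log2 on the knockout-labelled arrays against 6.97, 6.54 and 7.15 on the controls. Here the groups overlapped, since the knockout-labelled male was below control 6. The rise was 0.44 ± 0.09 log2 (SE, n = 3 per group), or 1.36-fold, with a limma adjusted p of 0.035. Hoxb7 (Entrez gene 15415), the ureteric bud and collecting duct gene, stood at 6.65, 7.18 and 6.94 log2 against 6.62, 6.27 and 6.53. The groups did not overlap, by a margin of less than 0.1 log2. Its rise was 0.45 ± 0.09 log2 (SE, n = 3 per group), or 1.37-fold, with a limma adjusted p of 0.038.

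The call of Hoxb9 was lost without control 2 (limma adjusted p = 0.057) or control 6 (0.058). Hoxb7 and Hoxb8 each missed the threshold whichever of the 6 arrays was left out, with adjusted p-values between 0.074 and 0.14 for Hoxb7 and between 0.069 and 0.13 for Hoxb8, while their differences stayed between 0.37 and 0.51 log2. In a model without sex none of the 36 members passed, with adjusted p-values of 0.17 for Hoxb9, 0.20 for Hoxb7 and 0.28 for Hoxb8, and none passed when each of the 41345 clusters was tested as its own row (0.058, 0.12 and 0.11).

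RefSeq's gene order places Hoxb9, Hoxb8, Hoxb7 and Hoxb6 next to each other among the Hox genes. Hoxb6, the next gene in line, missed the threshold at 0.48 ± 0.11 log2 (SE, n = 3 per group; limma adjusted p = 0.053). It stood at 7.27, 8.02 and 7.94 log2 on the knockout-labelled arrays against 7.32, 7.10 and 7.37 on the controls, so that both knockout-labelled females were above every control and the male was not. It passed with dim genes removed, with array weights, with a trended prior and in the females alone (limma adjusted p down to 0.022). Leaving out either male gives that same fit of the females alone. Hoxb6 missed the threshold in the other alternatives (up to 0.28). Beyond it the differences were 0.13 log2 for Hoxb5, 0.32 for Hoxb4, 0.38 for Hoxb3 and 0.14 for Hoxb2, none of which passed. Hoxb1 and Hoxb13, at the outer ends, were not above background and stood at 0.03 and -0.08 log2. The median over the 8 Hoxb genes above background was 0.41 log2, beside 0.11 for the 8 of Hoxa, 0.17 for the 5 of Hoxc and 0.17 for the 5 of Hoxd. The median over the 13671 genes above background was 0.01. Whether the Hoxb cluster differed from the others was not tested.

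**Figure D2:**
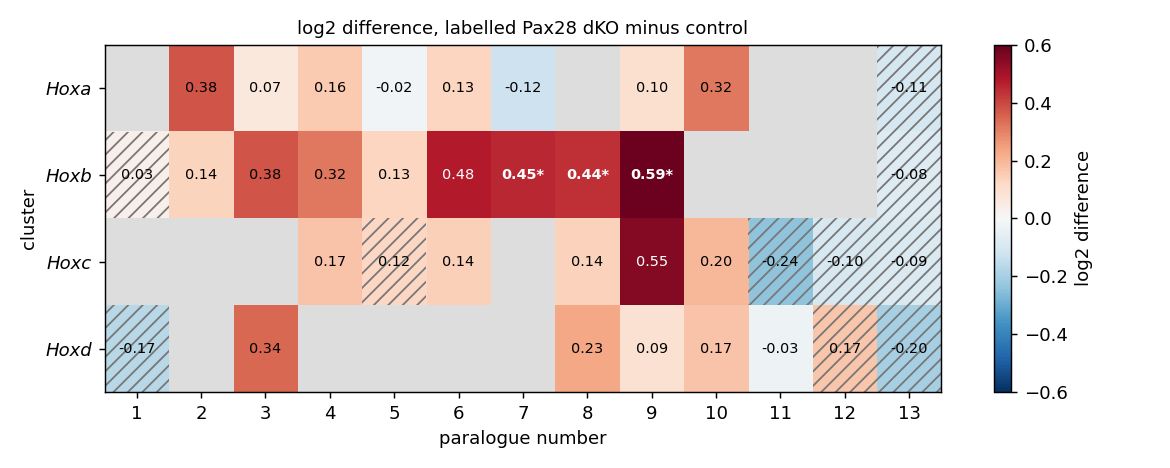
Log2 difference, arrays labelled Pax28 dKO minus controls, for each measured Hox gene by cluster and paralogue number; stars mark genes that passed, hatching marks genes not above background, and grey cells have no gene or no cluster of their own. The 3 starred cells, 0.45, 0.44 and 0.59, are adjacent in the Hoxb row, beside Hoxb6 at 0.48, which did not pass.

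The RefSeq promoter table held 20 of the 36 members, with 22 transcript starts. Among the 3 genes that passed it held Hoxb8, whose window from 250 bases before to 50 bases after a transcript start lies at chr11:96281655-96281954 on the plus strand of GRCm38.p6. It is shown because Hoxb8 sits between the other genes that rose. Capitals mark matches to the TATA box letters TATAAA and the CCAAT box letters CCAAT, each searched on both strands; the 2 TATA matches are on the minus strand and read TTTATA here, starting at positions -199 and -110 from the transcript start, and the CCAAT match starts at -57.
Hoxb8 promoter: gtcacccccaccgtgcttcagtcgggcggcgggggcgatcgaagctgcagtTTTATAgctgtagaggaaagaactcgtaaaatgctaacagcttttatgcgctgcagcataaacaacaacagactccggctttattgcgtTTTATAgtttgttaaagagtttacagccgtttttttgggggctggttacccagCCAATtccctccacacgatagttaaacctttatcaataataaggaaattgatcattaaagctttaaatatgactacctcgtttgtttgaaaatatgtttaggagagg
TATAAA occurred in 13.6% and CCAAT in 37.4% of the 32851 promoter windows of the same length, and in 3 and 14 of the 22 Hox windows. The core letters of a paired-domain site, GCGTGAC, which Pax2 and Pax8 can bind, occurred in 0 of the 22 Hox windows, beside 2.09% of all windows. A Hox-Pbx site, TGATTNAT, occurred in 2 of the 22, of Hoxa2 and Hoxd11, beside 3.22% of all. The Hoxb8 window holds 13 CG dinucleotides, where the median was 17 over the Hox windows and 7 over all windows. These matches describe the letters in these windows only.

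The paralogues of the 3 genes that rose did not pass, and differences between paralogues were not tested. In group 9, Hoxc9 stood at 5.98, 6.57 and 6.18 log2 on the knockout-labelled arrays against 5.64, 5.75 and 5.69 on the controls. Its groups did not overlap, and its difference of 0.55 ± 0.14 log2 (SE, n = 3 per group) was close in size to that of Hoxb9, but it did not pass (limma adjusted p = 0.073). Hoxa9 stood at 6.95, 7.17 and 7.11 against 6.94, 6.91 and 7.09, and Hoxd9 at 6.19, 6.53 and 6.40 against 6.24, 6.30 and 6.32. Those 2 genes differed by 0.10 ± 0.08 and 0.09 ± 0.10 log2 (SE), and their groups overlapped. The 95% interval of the difference reached 0.29 for Hoxa9 and 0.32 for Hoxd9, without adjustment for the number of genes. Hoxb9 had the largest difference of the 36, so its interval was not set against theirs.

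In group 8, Hoxc8 stood at 5.82, 6.14 and 6.18 log2 against 5.997, 5.65 and 6.08, and Hoxd8 at 7.98, 8.39 and 8.16 against 8.12, 7.58 and 8.14. Their differences of 0.14 ± 0.08 and 0.23 ± 0.10 log2 (SE, n = 3 per group) did not pass, beside 0.44 for Hoxb8. In group 7, Hoxa7 stood at 7.51, 7.76 and 7.59 against 7.76, 7.72 and 7.75, a difference of -0.12 ± 0.09 log2 that did not pass, while Hoxb7 was 0.45 higher. Hoxa7 was the most negative of the 26 members above background, and the other negative ones were Hoxd11 (-0.03) and Hoxa5 (-0.02).

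In paralogue groups 10 and 11, which have embryonic kidney roles, no member passed. In group 10, which patterns the lumbar trunk and acts in kidney stroma, Hoxa10 stood at 6.37, 6.58 and 6.45 log2 against 6.07, 6.12 and 6.27. Its groups did not overlap, and the difference of 0.32 ± 0.09 log2 (SE, n = 3 per group) did not pass (limma adjusted p = 0.096). Hoxc10 and Hoxd10 differed by 0.20 ± 0.10 and 0.17 ± 0.09. In group 11, Hoxd11 stood at 4.86, 5.32 and 5.11 against 5.08, 5.12 and 5.19, a difference of -0.03 ± 0.11 with a 95% interval from -0.29 to 0.23, and Hoxc11 was not above background. Hoxa11 has no cluster of its own. The clusters it shares with Hoxa11os differed by 0.40 ± 0.10 and 0.08 ± 0.11 log2 (SE) in a fit over all 41345 clusters. Neither passed (limma adjusted p = 0.14 and 0.78).

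At the 3′ end of the clusters, where the early, anterior genes lie, 2 more members had adjusted p-values under 0.1. Hoxa2, a hindbrain and second-arch patterning gene, stood at 4.63, 5.09 and 5.05 log2 against 4.79, 4.33 and 4.51, with a difference of 0.38 ± 0.10 (SE, n = 3 per group; limma adjusted p = 0.071). Its groups overlapped, since the knockout-labelled male was below control 2. Hoxd3 stood at 4.78, 4.998 and 4.91 against 4.75, 4.42 and 4.48, with a difference of 0.34 ± 0.10 (adjusted p = 0.087) and no overlap. Hoxa4 and Hoxc4 also had groups that did not overlap, with differences of only 0.16 and 0.17 log2 that did not pass. Both are anterior members whose paralogue Hoxb4 differed by 0.32 and overlapped.

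Most members leaned upward. Of the 26 above background, 23 had a positive log2 difference, 88.5%, beside 52.7% of all genes above background, and the median was 0.17 log2. Over all 36 members 26 were positive, 72.2%, with a median of 0.14, beside 48.4% of all genes and a median of -0.01. Members share clusters and arrays and are not independent, so no test was made of these shares. All differences were small in the model with sex. There the 95% intervals of all 36 members, not adjusted for their number, lay within 1 log2 unit of 0, from -0.63 to 0.89. In the females alone the largest difference was 0.71 ± 0.15 log2 (SE), of Hoxc9, and no intervals were computed there. Of the 23 uncalled members above background the differences ran from -0.12 to 0.55.

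Genes of other cell types moved between the groups on the same arrays, and their part in the Hox differences was not tested. Of 10 fibroblast and stromal markers 6 rose and 0 fell (median 0.63 log2), among them Col1a1 (1.56 ± 0.10, SE) and Col3a1 (1.43 ± 0.11). The mean of the 10 was 6.64, 6.87 and 7.01 log2 on the knockout-labelled arrays and 6.34, 5.81 and 6.23 on the controls, and Lum and Foxd1 were not above background. Of 9 principal cell markers of the collecting duct, the lineage in which Hoxb7 is known, 6 fell and none passed as higher, with a median of -1.05. The other 3 had positive differences that did not pass, Gata3 (0.28), Scnn1b (0.16) and Scnn1g (0.04). The mean of the 9 was between 6.92 and 7.11 on the knockout-labelled arrays and between 7.60 and 8.06 on the controls. Of 7 myeloid markers 6 rose (median 1.27) and of 6 proliferation markers 6 rose (median 1.76), while 0 of 6 endothelial markers passed by limma (1 at an unadjusted p under 0.05; median -0.05). Thin limb markers fell in 4 of 6 cases and proximal tubule markers in 3 of 7, while 3 of 8 lymphocyte and 2 of 6 smooth muscle markers rose, and 0 of 4 urothelial markers passed. Adipocyte markers stood apart on controls 2 and 6, with a mean of 6.38 and 6.20 log2 beside 4.43 to 5.44 on the other arrays. In whole kidney RNA, fewer cells of a type and less RNA per cell cannot be told apart. The tissue label was checked on 7 proximal tubule markers, whose mean was between 9.90 and 11.1 log2 on all arrays.

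The Hox genes leaned lower in males. Of the 26 members above background 25 had a negative male minus female difference, 96.2%, beside 57.6% of all genes above background, with a median of -0.26 log2 (-0.03 over those genes). The 1 exception was Hoxc10 (0.02). Without knockout-labelled array 1, a male, 7 of the 26 were higher in the male and the median was -0.20. Over all 36 members 32 were negative, 88.9% beside 54.9% of all genes. The male array lay below both female arrays of its own group, in each group, for 16 of the 26 members, 61.5%, beside 25.6% of the genes above background, and for 17 of the 36, beside 20.3% of all genes. The comparison rests on 2 male and 4 female arrays. Hoxb9 alone passed, at -0.49 ± 0.08 log2 (SE; limma adjusted p = 0.046), that is 1 of 36 members, 2.78%, beside 1.87% of all genes, or 3.85% of the 26 beside 2.9%. At an unadjusted p under 0.05 there were 13 of 36, 36.1%, beside 16.1%, and 50% of the 26 beside 21.5%. They were Hoxa2, Hoxa3, Hoxa5, Hoxb2, Hoxb4 to Hoxb9, Hoxc8, Hoxd8 and Hoxd10, and all 13 were lower in males.

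Every Hoxb member above background was lower in males by its sign. The 8 lay between -0.49 and -0.28 log2, with a median of -0.41, and 7 of the 8 were among the 13. The medians were -0.13 in Hoxa, -0.10 in Hoxc and -0.19 in Hoxd, and the difference between clusters was not tested. Averaged over the 8 Hoxb genes, the arrays of the males stood at 6.43 (knockout-labelled) and 6.18 log2 (control), and those of the females at 6.93 and 6.90 (knockout-labelled) and 6.40 and 6.58 (control). The knockout-labelled male was thus at the level of the control females, and the control male was lowest. Markers of several cell types also pointed lower in males. By sign this held for 10 of 10 stromal markers (median -0.37, 1 passed), 6 of 6 adipocyte (-0.72), 6 of 6 proliferation (-0.48), 7 of 7 myeloid (-0.20) and 6 of 6 endothelial markers (-0.16), and none of the last 4 lists held a gene that passed. An unadjusted p under 0.05 was found for 7 of 10 stromal, 4 of 6 proliferation, 2 of 7 myeloid, 1 of 6 adipocyte and 0 of 6 endothelial markers. Among all genes above background the share was 21.5%. Other lists were mixed, with 8 of 9 principal cell, 5 of 6 smooth muscle, 3 of 4 urothelial and 3 of 6 thin limb markers negative. So were 3 of 8 lymphocyte markers (2 passed as higher in males) and 1 of 7 proximal tubule markers (1 passed as higher). The adipocyte mean of the knockout-labelled male, 5.24, lay between its females at 5.44 and 4.62. The part of these cell types in the sex difference was not tested.

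**Figure D3:**
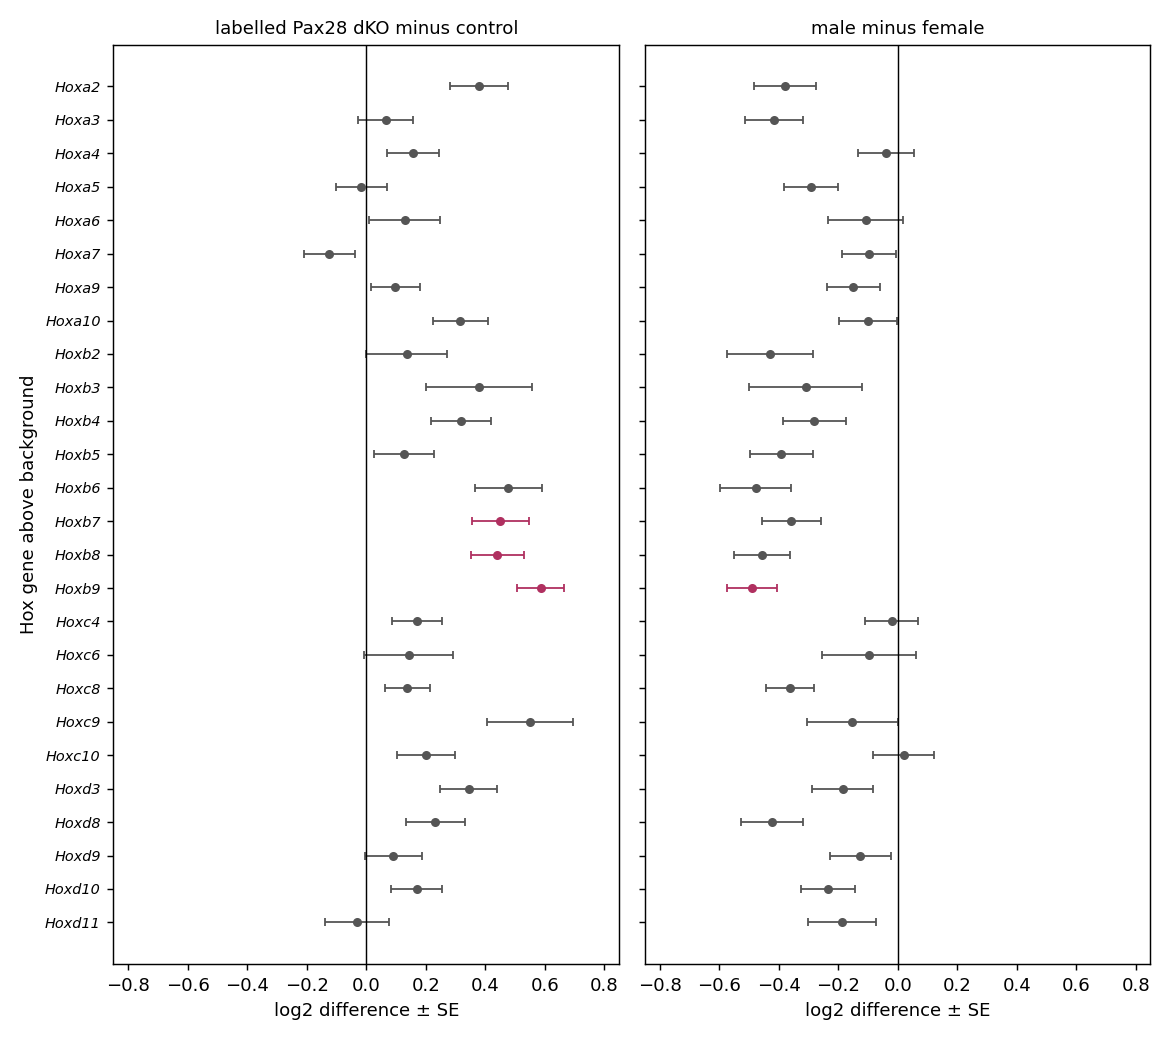
Log2 differences ± SE (limma) for the 26 Hox genes above background, on the left for arrays labelled Pax28 dKO minus controls and on the right for males minus females; red marks genes that passed. On the left 23 of 26 points are above 0 and on the right 25 of 26 are below 0.

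The call of Hoxb9 between the sexes did not hold whichever array was left out (limma adjusted p between 0.11 and 0.25), while the difference stayed between -0.55 and -0.43 log2. A trended robust prior called 4 members lower in males, Hoxb6, Hoxb8, Hoxb9 and Hoxd8, and removal of dim genes called 3, Hoxb8, Hoxb9 and Hoxc8. Calls rose over all genes as well. The main fit called 278 of 22180 higher and 137 lower in males. The trended robust prior called 509 and 399, and removal of dim genes 362 and 281 of 13671.

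The knockout-labelled difference was compared between the sexes in turn. A genotype by sex term passed for 0 of 36 members by limma and for 1 of 22180 genes (0.00451%). At an unadjusted p under 0.05 it found 2 members, 5.56% beside 6.99% of all genes. In Hoxc6 the knockout-labelled arrays were 0.35 log2 higher in the females and 0.28 log2 lower in the male, with values of 6.61, 7.12 and 6.92 against 6.75, 6.89 and 6.58 (interaction -0.64 ± 0.21, SE; limma adjusted p = 0.66). In Hoxb6 the difference was 0.63 in the females and 0.17 in the males (interaction -0.46 ± 0.17; adjusted p = 0.68). For the 3 genes that passed, both sexes pointed up. Hoxb9 was higher by 0.62 in the females and 0.51 in the males, Hoxb8 by 0.39 and 0.53, and Hoxb7 by 0.48 and 0.39. Each male value compares 1 array with 1 array and has no replicate. The median over the 26 members was 0.25 in the females and 0.11 in the males, and 18 of the 26 were positive in both.

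**Figure D4:**
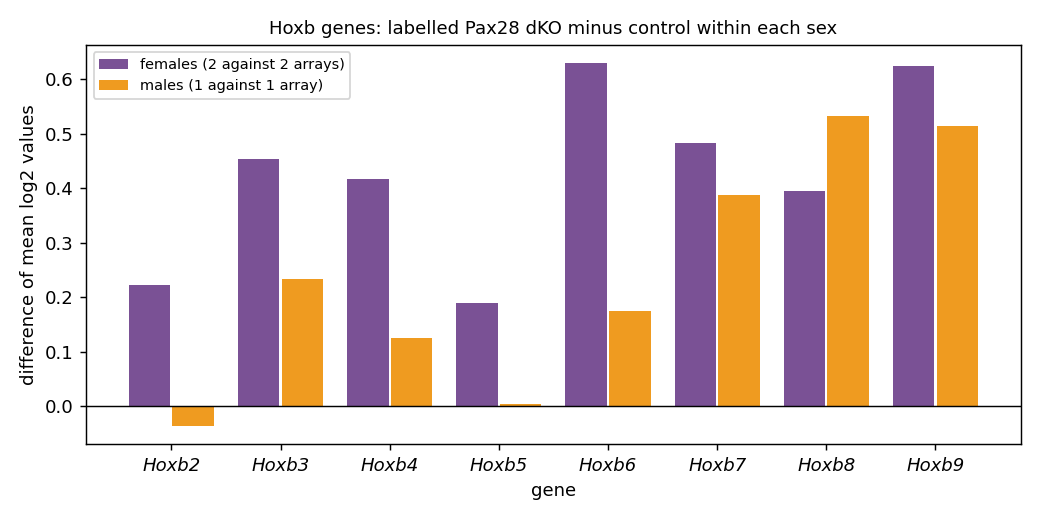
Difference of mean log2 values, arrays labelled Pax28 dKO minus controls, within the females (2 against 2 arrays) and within the males (1 against 1) for the 8 Hoxb genes above background. Hoxb7, Hoxb8 and Hoxb9 are higher by 0.39 to 0.62 in each sex, and Hoxb2 and Hoxb5 are near 0 in the males.

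The clusters also hold microRNA genes, and 1 of them was lower in males, as was its neighbour Hoxb9. Mir196a-1 lies next to Hoxb9 in RefSeq's order, and Mir196a-2 lies between Hoxc10 and Hoxc9. Mature miR-196 pairs with Hox messenger RNAs and is known for cleaving that of Hoxb8. The mature sequences are shown because the family shares its seed, the bases 2 to 8 that direct target pairing, which are in capitals. Mir10a and Mir10b, in the Hoxb and Hoxd clusters, share another.
miR-196a-5p (Mir196a-1 and Mir196a-2): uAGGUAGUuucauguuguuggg
miR-196b-5p (Mir196b): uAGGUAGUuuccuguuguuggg
miR-10a-5p (Mir10a): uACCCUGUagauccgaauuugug
miR-10b-5p (Mir10b): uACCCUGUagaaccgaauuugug
They are from RefSeq (GRCm38.p6), where the copy of miR-196a-5p beside Hoxb9 lies at chr11:96265187-96265208 on the plus strand. Counted from the 5′ end, miR-196a-5p differs from miR-196b-5p by A12C and miR-10a-5p from miR-10b-5p by U12A, both outside the seed.

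The array cluster annotated to Mir196a-1 reports the RNA of that locus and not the mature molecule. It stood at 5.75, 6.40 and 6.64 log2 on knockout-labelled arrays 1, 3 and 5 and at 6.63, 5.92 and 6.38 on controls 2, 4 and 6. The males, at 5.75 and 5.92, lay below all 4 females. The difference was -0.68 ± 0.12 log2 male minus female (SE; limma adjusted p = 0.047), larger than for any Hox gene, and missed the threshold whichever array was left out (adjusted p between 0.065 and 0.26). Between the groups it differed by -0.05 ± 0.11 log2 and did not pass, while its neighbour Hoxb9 rose. Of the 7 non-coding genes of the Hox clusters that were measured, 0 passed between the groups by limma, also at an unadjusted p under 0.05 (median -0.05), among them Hotair, which was not above background, and Mir615, at 0.18 ± 0.16.

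Of 8 TALE genes measured, which encode the Pbx, Meis and Pknox cofactors, 0 passed in either direction by limma, with a median of -0.02 log2. At an unadjusted p under 0.05 there were 2 of 8, beside 22% of all genes, namely Pknox1 (-0.29 ± 0.08, SE, n = 3 per group; adjusted p = 0.095) and Pbx3 (0.30 ± 0.10; adjusted p = 0.14), in opposite directions. Pbx4 was the 1 TALE gene not above background. None of the 9 Evx, Cdx and ParaHox genes, the homeobox relatives at the edges of the clusters and elsewhere, was above background or passed; 2 had an unadjusted p under 0.05. Of 10 embryonic kidney partners and targets of Hox proteins, Pax8 was the 1 that rose. Eya1, the phosphatase and coactivator of the group 11 complex, differed by -0.05 ± 0.09 log2, and Six2 and Gdnf, targets of that complex in the embryo, were not above background.

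Among regulators of the clusters, 2 of 26 measured Polycomb genes passed, a share near the 7.2% of all genes and 10.7% of those above background that passed in either direction. Ezh2, the histone H3 lysine 27 methyltransferase common in dividing cells, rose by 0.61 ± 0.11 log2 (SE, n = 3 per group; limma adjusted p = 0.029), from 5.73, 5.74 and 5.82 on the controls to 6.07, 6.42 and 6.62. Cbx7, a reader of that mark in Polycomb complex 1, fell by 0.66 ± 0.12 (adjusted p = 0.026), from 6.41, 6.60 and 6.54 to 5.63, 5.90 and 6.04. The other 24 did not pass, and the list median was 0.00056. The proliferation markers rose on the same arrays as Ezh2, and their part in its rise was not tested. Ezh2 lost its call in the model without sex (0.082) and without control 2, control 6 or knockout-labelled array 3 or 5 (adjusted p up to 0.11), and Cbx7 whichever array was left out (0.052 to 0.097) and in the females alone. Both missed the threshold with every cluster tested (0.10 and 0.097).

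Of 20 MLL and trithorax genes, which keep active Hox genes on, 0 passed by limma and 3 had an unadjusted p under 0.05, with a median of 0.11 log2 and 16 positive differences. Such p-values were found for 22% of all genes and 29.6% of those above background, and positive differences for 48.4% and 52.7%. The excess of positive differences was not tested. Paxip1, the adaptor that links Pax2 to MLL complexes, differed by -0.01 ± 0.08. Between the sexes Kdm6a, an X-linked lysine 27 demethylase known to escape X inactivation, was lower in males (-0.59; adjusted p = 0.024), a call lost whichever array was left out (up to 0.16).

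Retinoid genes, whose signal switches on genes at the 3′ ends of Hox clusters in the embryo, were measured in 15 cases, of which 3 fell, 1 rose and 11 did not pass. Of all genes 3.08% passed as lower and 4.12% as higher. At an unadjusted p under 0.05 there were 7 of the 15, beside 22% of all genes. The retinaldehyde dehydrogenase Aldh1a3 fell by 2.93 ± 0.14 log2 (SE, n = 3 per group; limma adjusted p = 0.0011), while Aldh1a1, another enzyme of that step, rose by 2.00 ± 0.15 (0.0022). Aldh1a2, of the same enzyme family, was higher by 1.11 ± 0.25 log2 without overlap and just missed the threshold (limma adjusted p = 0.0501). Stra6, the retinol importer, fell by 1.44 ± 0.25 and Crabp2, which carries retinoic acid to the nucleus, by 0.83 ± 0.14. The list median was -0.09. The call of Stra6 was lost without control 2 or 6, without knockout-labelled array 3 or 5 and in the model without sex (adjusted p up to 0.099), and that of Crabp2 without control 2 or 6 (up to 0.085). Both missed it with every cluster tested (0.093 and 0.090). No retinoic acid receptor passed, and Cyp26a1, the degrading enzyme that retinoic acid induces, was not above background.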

How the data were processed

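RNA of 6 kidney samples was measured on 1 array each. The authors deposited log2 values for each transcript cluster. The submitters' processing notes list RMA, limma and R 3.4.0 with no role. The sources used here name no genome build. The table holds 41345 clusters, of which 23521 have 1 gene symbol in the platform annotation, 1814 several and 16010 none. Only the first kind was used. Of 1082 genes with more than 1 cluster the highest-mean cluster was kept, which left 22180 genes.

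A model with genotype and sex was fitted in limma 3.58.1 (R 4.3.3) with its default moderation, which raised 3 residual degrees of freedom to 6.72. P-values were Benjamini-Hochberg adjusted over all genes, with a threshold of 0.05. A positive log2 difference means higher on the arrays labelled knockout. The fit was tested on 10 simulations of that comparison with 200 changed genes among 22180: 27.6% of changes of 0.5 log2 were called, 75.6% of those of 1 and 95.9% of those of 2, and 3.79% of calls were false. The simulations held fewer changed genes than the 913 and 683 that passed in the data, so these rates need not hold there. The number of arrays limits the precision.

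The members and gene lists were chosen with earlier results of these data known. Values on each array are given for members that passed and for their paralogues, and of each list the genes that passed are named. Other genes named, and the values on each array of other members, were chosen after their values were seen. Alternatives were a model without sex, females alone, each array left out, other moderation, array weights, other scalings, removal of dim genes, averaging the clusters of a gene and testing every cluster.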

Additional observations from a re-analysis of the deposited data

How the results depend on the processing

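No paired analysis was possible because the 2 groups share no replicate number in the labels. The direction of the knockout-labelled difference was kept in every alternative run by the 10 Hox genes with an unadjusted p under 0.05. Those genes were picked by that p on these same arrays, and several alternatives leave the estimate itself unchanged. The kept direction was thus largely fixed in advance. The count of members higher, 3, was 0 in a model without sex, 0 with every cluster tested, 5 with a trended robust prior, 5 with removal of dim genes below the receptor limit, and 0 to 2 with single arrays left out, 0 without control 2 or control 6. All genes that passed as higher or lower together numbered 913 and 683, and 304 and 167 in the model without sex, 155 and 84 with every cluster tested, 218 and 126 without control 2, 223 and 133 without control 6, 401 and 212 without knockout-labelled array 3 and 335 and 194 without array 5. Where the count of members rose to 5, calls over all genes rose as well. They were 1180 and 982 with the trended robust prior, and 1077 and 890 of 13671 with dim genes below the receptor limit removed. Leaving out either male leaves the 4 females to decide the genotype difference. The count lower stayed 0 throughout. The 23 of 26 members with a positive difference became 21 to 24. Median centring moved the median of all genes by under 0.1 log2, to -0.04, and Hoxb8 then missed the threshold (adjusted p = 0.051). Members that differed between the sexes numbered 1, and 4 with a trended robust prior, 3 with dim genes removed and 0 with each single array left out. Sex calls over all genes likewise rose in the first 2 of these alternatives and fell with each single array left out. For the dependence on sex the count was 0 throughout; without either male it could not be fitted. Changes of 0.5 log2, the size seen in the Hoxb genes, are near the limit of detection with 3 arrays per group.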

Other observations

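Clusters that carry several symbols name members that had no cluster of their own, or other parts of members' loci. In a fit over all 41345 clusters none of the 7 passed. Neither did Hoxb9, Hoxb8 or Hoxb7 in that fit (limma adjusted p = 0.058, 0.11 and 0.12). The 2 clusters that name both Hoxa11 and Hoxa11os differed by 0.40 ± 0.10 log2 (SE, n = 3 per group; limma adjusted p = 0.14) and 0.08 ± 0.11 (adjusted p = 0.78), knockout-labelled minus control, and the cluster that names Hoxd4 and Hoxd3 by 0.38 ± 0.10 (adjusted p = 0.15). The cluster that names Hoxb3 and Hoxb2 was the 1 with a negative difference beyond 0.4, at -0.45 ± 0.09 (adjusted p = 0.10). It stood at 6.49, 6.32 and 6.29 on the knockout-labelled arrays and 6.88, 6.84 and 6.73 on the controls, without overlap. The means were 6.36 and 6.81. Its adjusted p was below those of Hoxb8 and Hoxb7 in the same fit. The clusters of Hoxb3 and Hoxb2 alone differed by 0.38 and 0.14. The cluster with Hoxa3 and 5730446D14Rik differed by -0.27 ± 0.12, that with Mira and Hoxa7 by 0.04 ± 0.09, and that with Mir10a and Hoxb4 by 0.05 ± 0.15. Which gene of each pair these values report was not tested. Hoxb5, the 1 member with 2 clusters of its own, differed by 0.13 ± 0.11 and 0.11 ± 0.10 in them.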
